A study of Caenorhabditis elegans with 2 samples.

Results

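Of the 19973 protein-coding genes of Caenorhabditis elegans with an annotated start on a nuclear chromosome, 10 encode the nuclear receptors described here: daf-12, nhr-8, nhr-48, nhr-23, nhr-25, nhr-85, sex-1, nhr-6, nhr-67 and nhr-91. They were chosen by name, as receptors with relatives in insects or vertebrates and mostly with known parts in development or moulting. No measured value set the choice, but earlier results of these data were known when it was made. The data are chromatin immunoprecipitation with sequencing (ChIP-seq), which recovers DNA held by a protein, for another receptor of the same superfamily, NHR-77. Both samples were whole L4 larvae of mixed sex from strain OP353, which carries the insertion wgIs353 with an eGFP-tagged nhr-77 on an unc-119(tm4063) background. They are biological replicates 1 and 2 of 1 group. The background mutation and the transgene are shared by both samples, and the labels give neither the promoter nor the copy number of the transgene. No untagged sample was analysed here, so recovery through the tagged protein and any other recovery cannot be told apart, and whole larvae do not show in which cells a region was recovered.

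Nuclear receptors are transcription factors that bind DNA through a pair of zinc fingers and often change activity when a small lipid-like ligand binds them. In the worm, DAF-12 and its relatives link steroid signals to reproduction, timing and lipid balance, while NHR-23, NHR-25 and NHR-85 are relatives of the insect receptors that act in the ecdysone cascade and take part in the cycle of moults or in developmental timing. NHR-77 is not one of these receptors, and the question put to the data is where regions of its ChIP lie around their genes.

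A region is an interval listed by the authors, with a summit and a signal value, which is the authors' own enrichment value. The pooled list and each replicate list held 30000 regions, background included, and rank 1 is the strongest signal in a list. A thresholded peak is a region of the authors' set that was kept by their cut on the irreproducible discovery rate (IDR), a measure of how alike regions rank in the replicates, 3457 regions in all, with pooled signals from 46.7 to 596. These were exactly the pooled regions of rank 1 to 3457, so the rank of a peak is the same in both lists. The deposited q-value was under 0.05 for 8873 pooled regions, for 9386 regions of replicate 1 and for 11287 of replicate 2. The read depth is unknown. Distances run from the summit to the nearest annotated start of the gene, and negative distances are upstream. Coordinates are those of ce11, counted from 1.

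Thresholded peaks lay within 5000 bp of a start of 3 of the 10 genes, daf-12, nhr-8 and nhr-48, against 31.1% of all protein-coding genes. These 3 genes are the worm members of the vitamin D receptor-like subgroup, relatives of Drosophila HR96, and they held all 8 peaks. The other 7 genes held 0. Within 500 bp of a start a peak was found for nhr-8 only, 1 of 10 against 10.2% of all protein-coding genes. The shares of the whole group were thus close to those of all genes at both distances, and the concentration in 1 subgroup was seen in these counts and not tested. Among 264 other nuclear receptor genes, 107 (40.5%) had a peak within 5000 bp and 48 (18.2%) within 500 bp.

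The DNA under the 8 peak summits is shown first, because the peaks of these 3 genes are the strongest regions of the group. Each run is the ce11 sequence, read from the RefSeq genome, of the 50 bases on both sides of the summit on the strand of the gene, and the run of nhr-8 stops before its annotated start. Capitals mark the letters that were searched on either strand. These were the nuclear receptor half-site AGGTCA with its longer forms TCAAGGTCA plus AAAGGTCA, which contain it, the half-site variants written AGTTCA or AGTGCA or AAGTCA, the GATA-type letters TGATAA with the longer form CTGATAA that contains them, the other GATA-type form AGATAA, the E-box written CACGTG, plus the repeat GAGAGA. The run TTTTTT was also searched and is left in lower case.
daf-12, intron peak of rank 2585, at +1687 bp: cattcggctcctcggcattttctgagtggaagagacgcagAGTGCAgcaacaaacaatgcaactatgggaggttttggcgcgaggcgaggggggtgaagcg
daf-12, intron peak of rank 3321, at +3763 bp: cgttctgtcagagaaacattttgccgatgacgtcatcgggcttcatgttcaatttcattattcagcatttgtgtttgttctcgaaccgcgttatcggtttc
daf-12, peak of rank 2116 beyond the 3′ end: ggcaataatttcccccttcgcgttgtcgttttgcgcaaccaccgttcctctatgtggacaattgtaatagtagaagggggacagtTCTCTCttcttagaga
nhr-8, peak of rank 1271 at the start: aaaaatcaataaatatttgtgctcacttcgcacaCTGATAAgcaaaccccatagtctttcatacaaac
nhr-48, upstream peak of rank 1774: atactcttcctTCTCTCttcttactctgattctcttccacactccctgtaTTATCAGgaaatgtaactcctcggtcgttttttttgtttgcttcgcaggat
nhr-48, upstream peak of rank 2853: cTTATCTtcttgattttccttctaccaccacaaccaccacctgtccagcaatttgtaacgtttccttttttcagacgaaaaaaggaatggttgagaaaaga
nhr-48, upstream peak of rank 1720: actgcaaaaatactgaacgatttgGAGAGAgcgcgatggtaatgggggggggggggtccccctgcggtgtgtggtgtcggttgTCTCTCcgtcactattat
nhr-48, intron peak of rank 1034: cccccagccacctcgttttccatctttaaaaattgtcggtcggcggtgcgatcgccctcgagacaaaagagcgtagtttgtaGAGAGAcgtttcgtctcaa
The window of nhr-8 held CTGATAA on the strand of the gene. GAGAGA or its complement was found at 4 of the 8 summits, 3 of them at nhr-48, against 21% of all thresholded peaks and 9.75% of all pooled regions. Over all 88 pooled regions within 5000 bp of a start of the 10 genes it was found at 12 (13.6%). TGATAA was found at 2 of the 8 summits, against 28.9% of thresholded peaks and 15.8% of pooled regions. AGGTCA was found at 0 of the 8, against 3.15% of thresholded peaks and 2.67% of pooled regions. The median GC content at the 8 summits was 44.6%, against 41.6% over all thresholded peaks.

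daf-12 encodes the receptor for dafachronic acids, steroid hormones that direct larvae to reproductive growth instead of dauer arrest. The gene is 30968 bp long, has 9 annotated starts and lies on chromosome X (X:10635908-10666875, plus strand). Within 5000 bp of these starts lay 36 pooled regions, and 1 protein-coding gene had more. The window around its starts was 36218 bp, since the starts are spread over the gene, and the density was 9.94 regions per 10 kb, against 2.99 over the genome. By density, 1.39% of protein-coding genes stood higher. Some of these regions overlap each other, and 30 intervals remained after merging. The 36 regions were mostly weak, with pooled signals from 9.24 to 61.1, and 7 had a q-value under 0.05.

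Both intronic peaks of daf-12 lay in the part of the gene before its second annotated start. The peak at X:10637415-10637774 lay at +1687 bp from the first start, with a pooled signal of 55.2 and rank 2585, and its replicate ranks were 1862 (replicate 1) and 2329 (replicate 2). The peak at X:10639491-10639850, at +3763 bp, had a pooled signal of 47.8 and rank 3321, and it ranked 2579 and 2249. This was the peak just inside the threshold, since the lowest signal in the set was 46.7 at rank 3457. Both replicates placed these intervals at similar ranks. The strongest peak of daf-12, with a signal of 61.1 and rank 2116, lay at X:10667909-10668268, beyond the 3′ end of the gene and 3683 bp from its last start. Its ranks were 757 in replicate 1 and 4676 in replicate 2, the widest gap in ranks among the 8 peaks. The nearest protein-coding start of all 3 peaks was one of daf-12 itself.

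A weaker region beside that downstream peak overlapped a transfer RNA gene. It lay at X:10667393-10667752, had a signal of 24.4 and rank 8143, ranked 6094 in replicate 2 and was absent from the list of replicate 1. It covered all 72 bp of the tRNA gene WBGene00014320, whose nearest end lay 20 bp from the summit, and the summit of the peak of rank 2116 lay 425 bp from the same gene. The sources used here do not say how reads from repeated tRNA sequence were treated, and the part of the tRNA gene in these regions was not tested. The other daf-12 regions with a q-value under 0.05 were intronic, at ranks 5453, 6449 and 7414. The first of these lay at -199 bp from an internal start and ranked 10252 in replicate 1 and 6485 in replicate 2. Its summit window held AGGTCA, the only daf-12 region to do so. The regions of rank 6449 and 7414 ranked 23767 and 7591 in replicate 1, and 7470 and 9383 in replicate 2.

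The remaining 29 regions of daf-12 had no q-value under 0.05 and ranked from 9122 to 29219. Of all 36 regions, 27 lay in introns, 4 in the 3′ UTR, 3 upstream and 2 downstream. The strongest upstream region, at -879 bp from the first start, ranked 9122 and 8602 in the pooled list and replicate 2 and was absent from replicate 1. Along the gene no pooled region within 5000 bp of a start fell between 12907 bp and 18590 bp from the 5′ end. Part of that stretch lies more than 5000 bp from every start, and 1 further pooled summit, not counted among the 36, fell there. Replicate 2 held weak regions in the stretch, at +2544 and +3785 bp from an internal start, of rank 24958 and 27072. The regions of the 3′ UTR ranked 10791, 12995, 15690 and 19793, and 3 of them overlapped a single region of replicate 2, of rank 10097.

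nhr-8 encodes a receptor that acts in cholesterol balance, dafachronic acid production and resistance to toxins. It is short, 3228 bp with 2 starts only 5 bp apart, on chromosome IV (IV:7710983-7714210, plus strand). Its peak at IV:7710785-7711144 had its summit 18 bp before the start, the closest to a start among the 8 peaks, with a pooled signal of 77.3 and rank 1271. It ranked 3542 in replicate 1 and 1033 in replicate 2, with signals of 18.1 and 57.8 on the separate scales of these lists. By its best pooled rank, 13.9% of protein-coding genes had a stronger region within 5000 bp. Without replicate 2 the count of genes with a peak within 500 bp was 0, because the rank of 3542 lies outside the 3457 strongest regions of replicate 1.

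Of the other 6 pooled regions around nhr-8, 3 had a q-value under 0.05. The region of rank 4417 lay at -1072 bp, but at -134 bp from the start of mrps-24, which encodes a mitochondrial ribosomal protein. It ranked 3063 in replicate 1 and 5233 in replicate 2. The intronic region of rank 5458, at +1440 bp, ranked 2570 in replicate 1 and 14225 in replicate 2. The region of rank 7542, at +3279 bp, lay past the end of nhr-8 in the 3′ UTR of F33D4.6 and was absent from the list of replicate 1. The others were a weak region of rank 27366 in a coding exon at +178 bp, which shares its replicate regions with the peak, and regions of rank 12623 and 16298 at -3534 and -3977 bp, both nearer to the start of F33D4.4. Only the peak at the start was thus within the threshold in the pooled list.

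nhr-48 encodes the remaining receptor of the subgroup. The gene lies on chromosome X (X:15708213-15716875, plus strand) with 2 starts 133 bp apart. Within 5000 bp of them lay 5 pooled regions, of which 4 were thresholded peaks. At least 4 peaks within 5000 bp were found for 140 protein-coding genes (0.701%), and for 3 of the 264 other nuclear receptor genes. The intronic peak at X:15709591-15709950, at +1425 bp, was the strongest region of all 10 receptor genes, with a signal of 83.9 and rank 1034. It ranked 3433 in replicate 1 and 686 in replicate 2, with signals of 18.4 and 66.7 on the separate scales of these lists.

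The other nhr-48 peaks formed a series upstream of the gene. The summit at -584 bp (X:15707449-15707808) had a signal of 67.4 and rank 1720, and it ranked 4600 in replicate 1 and 1025 in replicate 2. The summit at -1849 bp (X:15706184-15706543) had a signal of 52.5 and rank 2853, with replicate ranks of 3409 and 3309. The summit at -3131 bp (X:15704902-15705261) had a signal of 66.5 and rank 1774, with replicate ranks of 3344 and 2253. All 4 peaks ranked further ahead in replicate 2. No summit of the pooled list lay within 500 bp of a start of nhr-48, although the replicate lists held weak regions there, at -256 bp in replicate 1 (rank 11775) and at +11 bp in replicate 2 (rank 25820). No other protein-coding gene had a start nearer to any of these peaks. The fifth region, in a coding exon, was near the bottom of the list at rank 24329. It lay at +2963 bp, and its replicate ranks were 24476 and 28826.

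**Figure D1:**
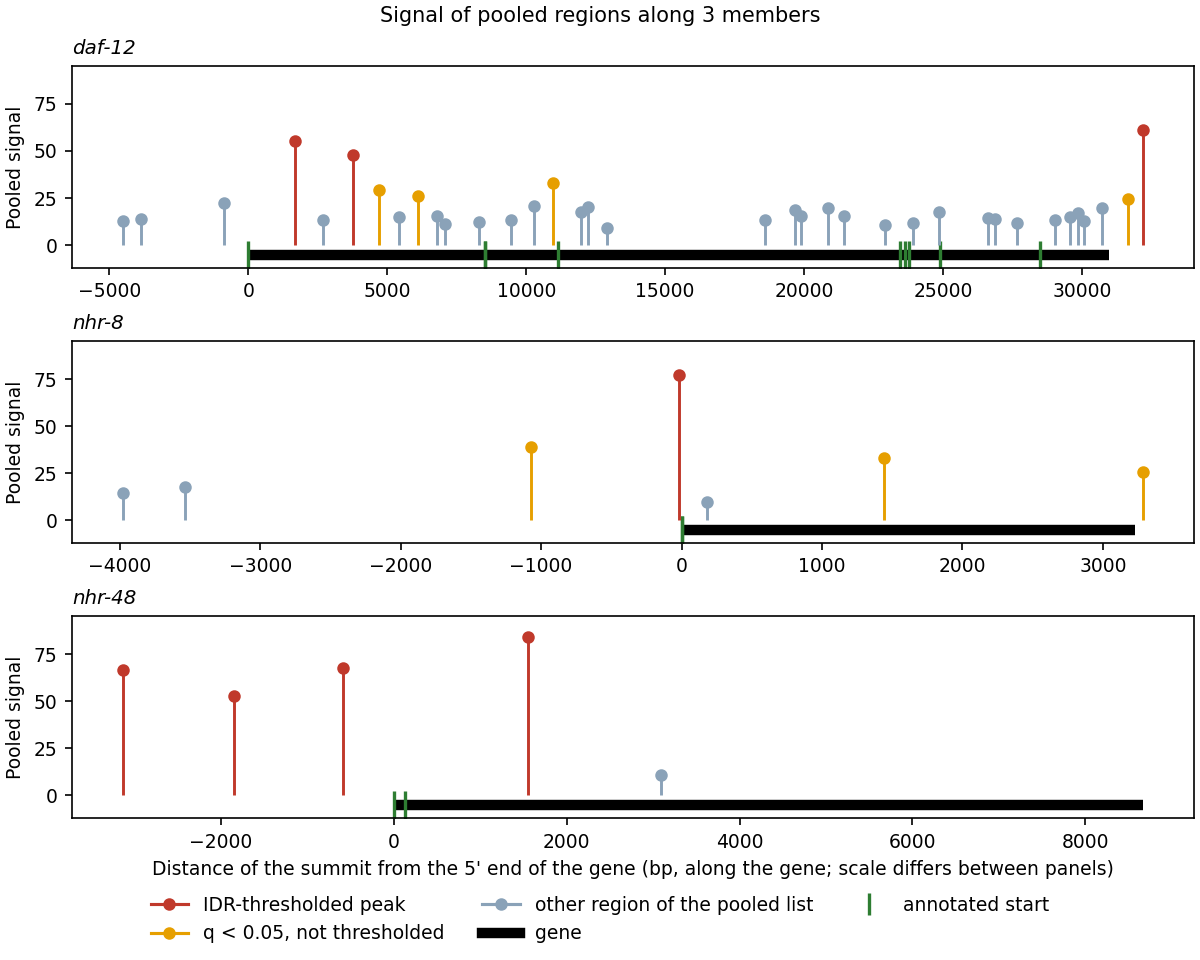
Pooled signal (vertical axis, the authors' enrichment value) of each pooled region within 5000 bp of a start of daf-12, nhr-8 and nhr-48, against the distance of its summit from the 5′ end of the gene in bp (horizontal axis). Red marks the 8 thresholded peaks, orange other regions with a q-value under 0.05, grey the rest, the black bar the gene and green ticks its starts. The 4 peaks of nhr-48 stand between 52.5 and 83.9, while most of the 36 regions of daf-12 stay under 25.

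A looser count brought in most of the other receptors. A pooled region with a q-value under 0.05 lay within 5000 bp of 8 of the 10 genes, against 53% of all protein-coding genes. Such a region lay within 500 bp of 4 (daf-12, nhr-8, nhr-25 and nhr-85), against 20.7%. At daf-12 and nhr-85 the start was internal, and the summits lay 10950 and 2728 bp from the 5′ end of the gene. Among the other nuclear receptor genes the shares were 55.7% and 30.7%. The region of nhr-23 was absent from replicate 1 and that of nhr-91 from replicate 2. Any pooled region lay within 5000 bp of 9 genes, against 76% of all protein-coding genes. The median rank of the strongest region, over these 9 genes, was 5020, against 4665 over the 15183 protein-coding genes with any region. In all, 88 pooled regions lay near the 10 genes, 8.8 per gene against 3.13 over all protein-coding genes. Of the 88, 25 overlapped another, and 75 intervals remained after merging. The count over all protein-coding genes was not merged either. The receptor genes have more starts (median 2.5 against 1) and wider windows (median 11627 bp against 10001 bp). These were not taken into account in the shares above. The density over their windows, without merging, was also higher, 6.29 against 2.94 regions per 10 kb. daf-12 alone held 36 of the 88.

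**Figure D2:**
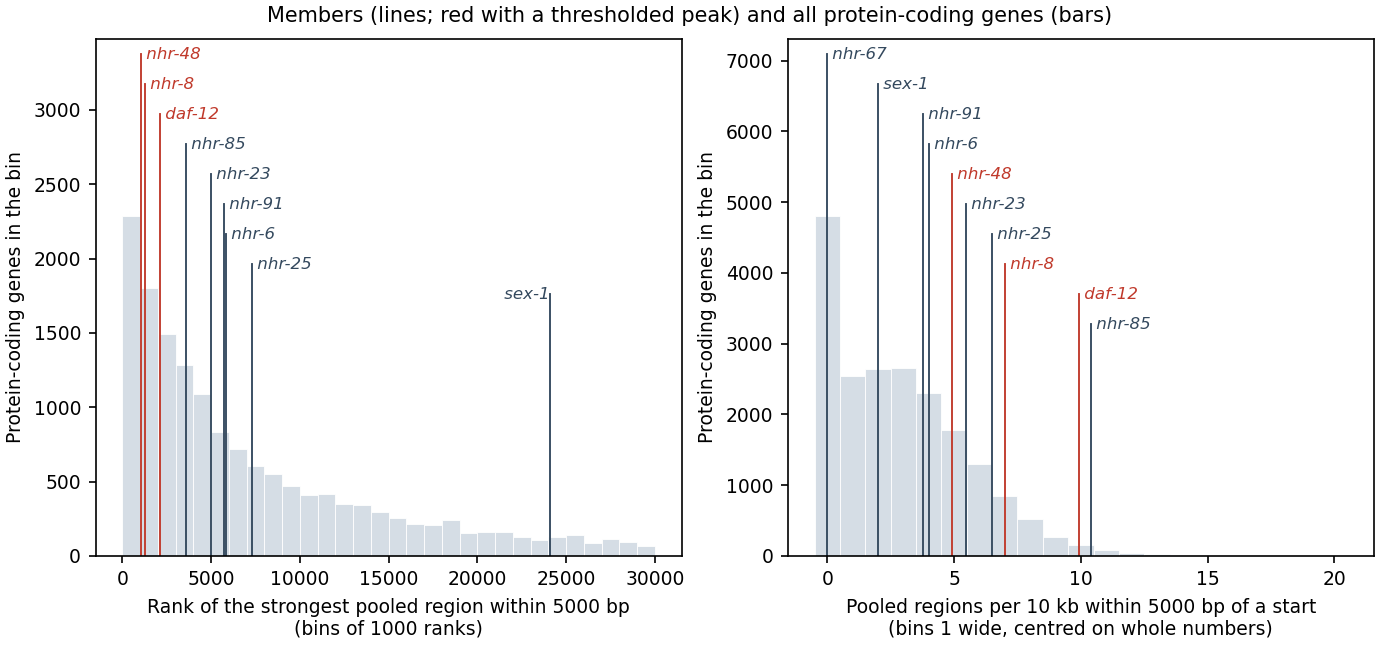
Left, the rank of the strongest pooled region within 5000 bp of a start for 9 receptor genes (lines) over the number of protein-coding genes in bins of 1000 ranks (bars); nhr-67 has no region. Right, pooled regions per 10 kb of window for all 10 receptor genes over protein-coding genes in bins 1 wide. Red lines are the genes with a thresholded peak. By rank nhr-48, nhr-8 and daf-12 lead, at 1034, 1271 and 2116, whereas by density nhr-85 and daf-12 lead, at 10.4 and 9.94.

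nhr-85, nhr-23 and nhr-25 have relatives in the insect moulting cascade. nhr-85, a relative of E75 and of vertebrate Rev-Erb that takes part in the timing of larval stages, lies on chromosome I (I:13055201-13062122, minus strand). It had 13 pooled regions and 10.4 per 10 kb, a density exceeded by 0.851% of protein-coding genes. Its strongest region, at I:13055461-13055820 and +3984 bp from the nearest start, lay in its own 3′ UTR and in an intron of npr-14, a receptor gene for neuropeptides. With a signal of 45.4 and rank 3595 it was the region of a receptor gene just outside the threshold, where the first region left out, at rank 3458, had a signal that also rounds to 46.7. It ranked 1140 in replicate 1 and 9138 in replicate 2, so the lists of the replicates placed it on opposite sides of the 3457 strongest. The region of rank 5324, at -3761 bp, lay nearer to hpo-2, at -741 bp from its start, and ranked 8293 and 4921. The intronic region of rank 6392, at +231 bp from an internal start, ranked 9411 and 11802.

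The other 10 regions of nhr-85 were weaker. The strongest of them, in an intron at -827 bp from an internal start, ranked 9722, with 28089 in replicate 1 and 9354 in replicate 2. Further intronic regions lay at +1643 bp (rank 11710, absent from replicate 1), +989 bp (rank 13604, with 6584 and 17570 in the replicates), +820 bp (rank 24592) and +2813 bp (rank 28346). Upstream regions at -403, -829 and -2082 bp ranked 25049, 23524 and 22377, and all 3 were absent from replicate 1. The region at -3963 bp, of rank 22156, overlapped the same replicate regions as the one at -3761 bp. The region past the 3′ end, at +4792 bp in an intron of npr-14, ranked 26042.

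nhr-23, a relative of Drosophila HR3 and vertebrate ROR receptors that is needed for moulting, lies on chromosome I (I:7214745-7221299, plus strand) with 6 starts. Of its 8 pooled regions 1 had a q-value under 0.05. This region, at I:7217153-7217512 in an intron and +549 bp from an internal start, had a signal of 35.5 and rank 5020. It ranked 3365 in replicate 2, inside the 3457 strongest there, and had no overlapping region in replicate 1. The region at the first start (+32 bp, in the 5′ UTR) ranked 25041 and that at -1326 bp ranked 10612, with 8000 and 12347 in the replicates. The strongest of its other upstream regions, of rank 10222 at -4270 bp, lay at -40 bp from a start of C01H6.4 and inside that gene. The others lay at -4062 bp (rank 21184, in C01H6.4), -1985 bp (rank 15582), +582 bp (rank 24650) and -173 bp from an internal start (rank 22934). In the pooled list no region upstream of nhr-23 or within 500 bp of its first start had a q-value under 0.05. Replicate 1 held an upstream region with such a q-value at -1447 bp, of rank 8000, and replicate 2 at -4197 bp, of rank 10795.

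nhr-25, the worm relative of Ftz-F1 and SF-1 that acts in moulting, epidermal cells and the gonad, lies on chromosome X (X:13008493-13013964, plus strand). Its strongest region lay close to the start, at -198 bp (X:13008115-13008474), with a signal of 26.5 and rank 7304. It ranked 28931 in replicate 1 and 6426 in replicate 2, the former near the end of that list. Its summit also lay in exons of the noncoding RNA genes F11C1.12 and F11C1.13. The other 6 regions ranked 14095 or weaker. Of these, 4 lay upstream, at -4085, -3866, -2997 and -2737 bp, and 2 in introns, at +172 and +2168 bp. Replicate 1 held an overlapping region, of rank 28265, for 1 of the 6, that at -2737 bp. The region at +172 bp ranked 22414 in the pooled list and 8638 in replicate 2, lay in an exon of the noncoding RNA gene F11C1.11 and held AGGTCA.

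sex-1 encodes an X-linked signal of sex that represses xol-1, an early switch in sex determination. It lies at X:10201329-10205421 on the minus strand. Both of its pooled regions were at the weak end of the list, at ranks 24073 (-4144 bp) and 26781 (-1020 bp), with signals of 10.9 and 9.99. The first overlapped a region of rank 17421 in replicate 2 and none in replicate 1, and the second overlapped none in either list. The region at -4144 bp lay nearer to a start of F44A6.3, at -3204 bp from it. Of all protein-coding genes, 73% had a stronger region within 5000 bp.

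nhr-6, nhr-67 and nhr-91 stand for organ and tissue development. nhr-6, the relative of the vertebrate NR4A receptors that shapes the spermatheca, lies at III:3573581-3578771. Its strongest region, at III:3571504-3571863 and -1897 bp, had a signal of 31.5 and rank 5848, and it ranked 7400 and 7866 in the replicates, which are close. Upstream regions at -3246 and -4249 bp ranked 13220 and 10305 and were absent from replicate 1. A pair of overlapping regions at +3326 and +3529 bp, of rank 19958 and 20995, lay downstream in an intron of C48D5.3.

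nhr-91, the relative of vertebrate germ cell nuclear factor, lies at X:15309369-15314899. Its intronic region at X:15310189-15310548, +988 bp, had a signal of 31.9 and rank 5744. It ranked 5538 in replicate 1, had no overlapping region in replicate 2, and its summit lay 31 bp from the noncoding RNA gene Y15E3A.15. The other 4 regions of nhr-91 ranked 18572 to 25400. They lay downstream at +3163 bp in an intron of glb-28, in an intron at -1468 bp from an internal start, and at +148 and +353 bp from it, where the summits fell in a 5′ UTR and a coding exon.

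nhr-67, the relative of Tailless that acts in the anchor cell, vulva and neurons (IV:11169748-11174791), had 0 regions in the pooled list and in both replicate lists within 5000 bp of its start. Of all protein-coding genes, 24% likewise had none in the pooled list.

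The windows of nhr-25, nhr-6 and nhr-91, which had a region with a q-value under 0.05 but no peak, are shown for comparison with the peaks, together with 2 weaker regions of daf-12 described above. They have the same form and the same letters in capitals.
nhr-25, region of rank 7304 at -198 bp: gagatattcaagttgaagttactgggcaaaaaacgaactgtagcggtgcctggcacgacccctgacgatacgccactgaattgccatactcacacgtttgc
nhr-6, region of rank 5848 at -1897 bp: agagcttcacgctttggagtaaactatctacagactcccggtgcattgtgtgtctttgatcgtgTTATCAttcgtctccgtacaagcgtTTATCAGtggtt
nhr-91, intron region of rank 5744: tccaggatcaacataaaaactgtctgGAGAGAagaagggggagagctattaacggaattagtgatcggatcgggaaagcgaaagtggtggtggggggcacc
daf-12, intron region of rank 5453, at -199 bp from an internal start: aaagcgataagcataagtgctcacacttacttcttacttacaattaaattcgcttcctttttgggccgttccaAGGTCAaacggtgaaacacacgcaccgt
daf-12, region of rank 8143 at the tRNA gene: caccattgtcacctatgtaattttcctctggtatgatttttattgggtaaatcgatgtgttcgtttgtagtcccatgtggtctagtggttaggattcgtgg
The window at nhr-6 held TGATAA on the reverse strand at 2 places, of which 1 extends to CTGATAA, and CTGATAA was found at 3 of the 5 regions of this gene. The window at nhr-25 held none of the marked letters.

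**Figure D3:**
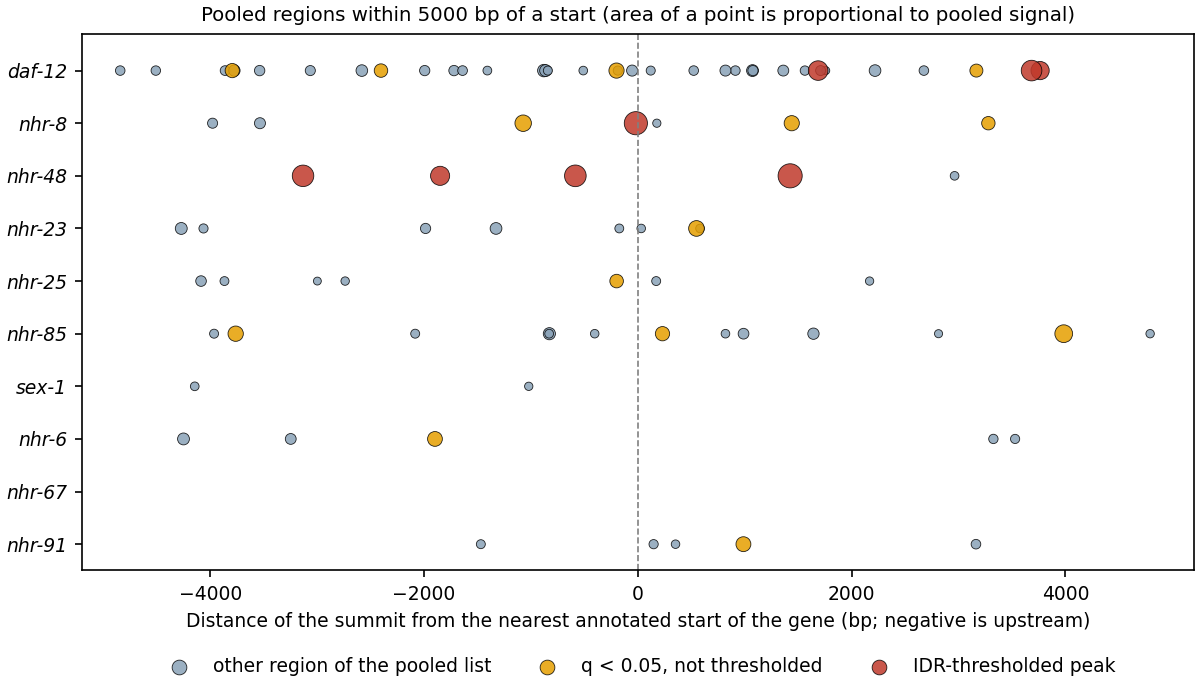
Each point is a pooled region within 5000 bp of a start of a receptor gene (rows), placed by the distance of its summit from the nearest start in bp (horizontal axis), with an area proportional to pooled signal. Red points are thresholded peaks, orange points other regions with a q-value under 0.05 and grey points the rest. Red points appear in the rows of daf-12, nhr-8 and nhr-48 only, and the row of nhr-67 is empty.

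By position, 42 of the 88 regions lay in introns of the receptor gene, 29 upstream, 7 downstream, 5 in 3′ UTRs, 3 in coding exons and 2 in 5′ UTRs. Of the 8 peaks, 4 were upstream, 3 intronic and 1 downstream. Over all 88 summits, AGGTCA was found at 7 (7.95%), against 2.67% of all pooled regions and 3.15% of thresholded peaks. Of these 7 regions, 4 belonged to nhr-85. Only that of daf-12, of rank 5453, had a q-value under 0.05, and the others ranked from 13604 to 25049. The half-site variant AGTTCA was also found at 7 (7.95%), against 6.29% of pooled regions and 5.35% of thresholded peaks. AGTGCA was found at 7 (7.95%), against 3.61% and 6.13%, and AAGTCA at 3 (3.41%), against 4.6% and 4.95%. TGATAA was found at 17 (19.3%), against 15.8% and 28.9%, and CTGATAA at 9 (10.2%), against 4.98% and 11.7%. The longer TCAAGGTCA, an extended half-site, was found at 0 and AAAGGTCA at 1. The run TTTTTT was found at 35 (39.8%), against 48.6% and 28.6%. AGATAA was found at 7 (7.95%), against 7.11% and 8.5%, and CACGTG at 1 (1.14%), against 2.33% and 5.55%. A match of letters is no evidence of binding by any factor, and no match covers only this window.

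Both replicate lists held an overlapping region for 8 of the 8 peaks, 18 of the 22 regions with a q-value under 0.05 and 47 of all 88. Over the whole pooled list these shares were 98.5%, 91.2% and 49.2%. Of the other 41 regions near the receptor genes, 27 were found in replicate 2 alone, 11 in replicate 1 alone and 3 in neither. Several pooled regions overlap the same replicate region, such as 3 of the 3′ UTR of daf-12. Among the peaks, the ranks in both replicates differed by a median of 2.46-fold and at most 6.18-fold, and 6 of 8 ranked further ahead in replicate 2. Over all peaks in both lists the median was 1.95-fold. The replicate lists also held 24 regions near the receptor genes with no pooled partner, the strongest of them at rank 6965 in replicate 1, near nhr-8.

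**Figure D4:**
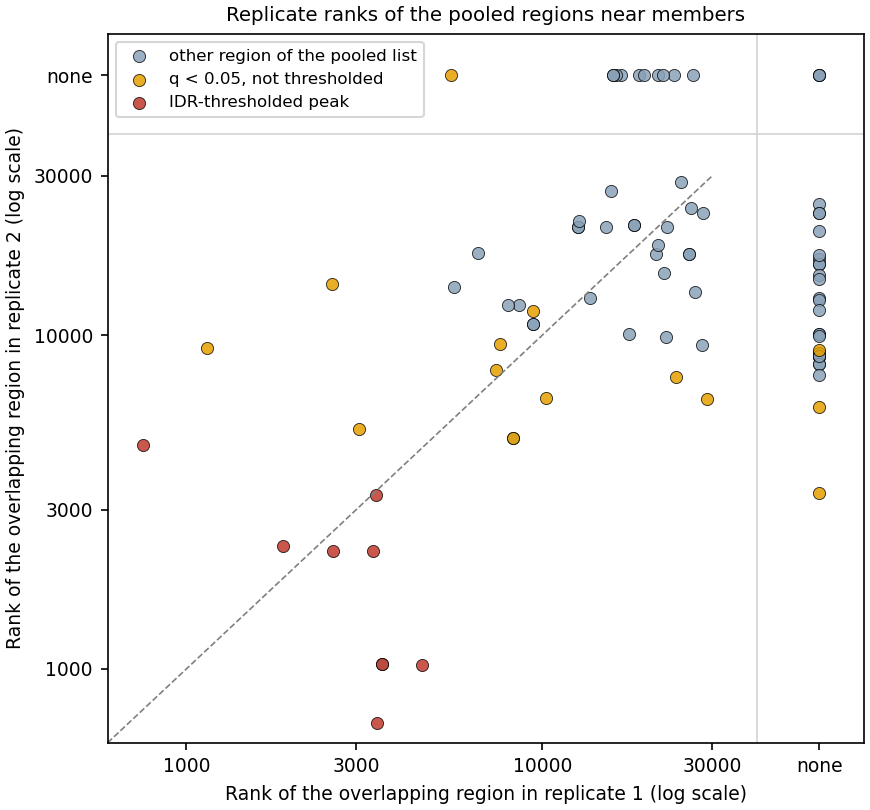
Rank in replicate 1 (horizontal axis) against rank in replicate 2 (vertical axis), both on log scales, of the strongest replicate region that overlaps each of the 88 pooled regions; "none" marks no overlap, and points that share replicate regions coincide. The dashed line marks equal ranks. All 8 red points (peaks) lie in both lists, 6 of them below the line, while the 5 peaks of nhr-8 and nhr-48 share replicate 1 ranks of 3344 to 4600.

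The gene of the tagged receptor itself, nhr-77, had 0 regions in the pooled list and in both replicate lists within 5000 bp of its start.

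Genes that work with these receptors were looked up in 7 lists. In the heterochronic list, which sets larval timing together with DAF-12, NHR-85 and NHR-23, 9 of 11 genes had a peak within 5000 bp, against 31.1% of all protein-coding genes, and 4 within 500 bp, against 10.2%: lin-42, the worm relative of Period (rank 1713, +278 bp), blmp-1, a zinc finger repressor (rank 1919, +422 bp), the Argonaute gene alg-2 (rank 2711, +391 bp) and the RNA-binding protein gene lin-28 (rank 3206, +69 bp). The median strongest rank of the list was 1919, against 4665 over all protein-coding genes. Further peaks of the list lay as far off as -3363 bp (alg-1) and +4239 bp (lin-14). The lin-46 peak lay nearer to a start of R186.8, and the ain-1 peak had no overlapping region in replicate 1. The list was chosen with earlier results of these data known, and its share was not tested. The number and spread of starts of its genes were not taken into account. The 5 microRNA genes of this list were not measured.

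In the steroid list of DAF-12 and NHR-8, 4 of 10 genes had a peak within 5000 bp and 2 within 500 bp. These were din-1, which encodes the corepressor of DAF-12 (rank 1840, -131 bp), and let-767, a gene of the hydroxysteroid dehydrogenase family (rank 2934, +252 bp). The strongest region of the list, chosen after its value was seen, was that of rank 84 at -3145 bp of emb-8, which encodes a cytochrome P450 reductase. daf-9, which encodes the enzyme that makes dafachronic acids, had no thresholded peak within 5000 bp and was likewise named after its value was seen. In the sex list 5 of 11 genes had a peak within 5000 bp and 1, sdc-2 of dosage compensation, within 500 bp (rank 135, -393 bp). A peak of rank 15, also named after its value was seen, lay at -4874 bp of xol-1, the target of SEX-1, whose start was the nearest protein-coding one.

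Moulting and cuticle genes held peaks within 5000 bp for 6 of 28 and within 500 bp for 4. Besides lin-42 and blmp-1 these were the myelin regulatory factor genes myrf-1 (rank 375, -279 bp) and myrf-2 (rank 1253, -246 bp). The median strongest rank of this list was 8784.5, weaker than that of all genes. Of the epidermal partners of NHR-25, 3 of 17 had a peak within 5000 bp and 1, the beta-catenin gene bar-1, within 500 bp (rank 2624, -487 bp). Of the anchor cell and vulva genes, 4 of 14 had a peak within 5000 bp and 0 within 500 bp. Of the somatic gonad genes, 4 of 13 had one within 5000 bp and 1, the AP-1 gene jun-1, within 500 bp (rank 226, -123 bp). Apart from the heterochronic list, these shares lay between 17.6% and 45.5% within 5000 bp, on both sides of the 31.1% of all genes. Within 500 bp they lay between 0% and 20%, on both sides of 10.2%, and none was tested.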

How the data were processed

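Regions were taken from 4 deposited lists on ce11: both replicates, both replicates pooled, and the set that passed the IDR threshold. The signal value per region is the authors' own as deposited, on a scale of its own in each list, and it served only to rank regions within a list. The −log10 q of each region was also deposited by the authors. Summits were taken from the deposited offsets. Per the labels, all samples were called on ce11 and ce10; the sources used here name no aligner, peak caller, IDR threshold or read depth. Lists on ce10 were not used.

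Positions were compared with the WBcel235 assembly, whose chromosome lengths hold every region, and with Ensembl annotation release 115, using Python 3.11.15 and matplotlib 3.10.9. Every annotated protein-coding transcript of a protein-coding gene gave a start, its 5′ end. A region was assigned to a receptor gene if its summit lay within 5000 bp of a start. Replicate ranks are those of the strongest region overlapping by at least 1 base. Motif letters were searched within 50 bp of each summit on both strands. Placement was checked on simulated data. With 1 group of 2 replicates no test was run, and counts are set beside the same counts over 19973 protein-coding genes, or over 264 other genes named as nuclear receptors. The receptor genes, the 7 pathway lists and the motifs were chosen with earlier results of these data known. Genes named were the 10 receptors, the gene nearest to each of their peaks, nhr-77, and from each pathway list those with a peak within 500 bp, at most 5 by rank. Outside this rule, emb-8, xol-1, daf-9, lin-14, alg-1, lin-46 and ain-1 were named after their values were seen. So were R186.8 and genes that hold or neighbour weaker regions of the receptors. The symbols sea-3 and elt-5 were not matched in the annotation.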

Additional observations from a re-analysis of the deposited data

How the results depend on the processing

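The count of receptor genes with a thresholded peak within 500 bp, 1, stayed at 1 with a window of 250 bp, with the stronger 1728 peaks, with the gene's own start only, with the nearest start only and with midpoints. It became 2 with a window of 1000 bp, which added nhr-48. With all regions of q-value under 0.05 it became 4, where daf-12 and nhr-85 counted through internal starts. With the 3457 strongest regions of 1 replicate alone it ranged from 0 to 1, with 0 in replicate 1. The count within 5000 bp, 3, became 8 with all regions of q-value under 0.05. It was 4 in each replicate alone, which added nhr-23 in replicate 2 and nhr-85 in replicate 1, and 2 with the stronger 1728 peaks, without daf-12. The 88 pooled regions became 54 with a window of 2500 bp and 53 with the start of the gene only, since internal starts then no longer count. The median strongest rank ranged from 4441 to 5744. Shared regions fell from 47 to 36 when the pooled summit had to lie inside the replicate region. A window of 100 bp around summits raised the count of AGGTCA from 7 to 11 and that of TGATAA from 17 to 24, and it kept TCAAGGTCA at 0. No paired analysis was possible because the 2 replicates form 1 group. The unknown read depth limits every count: a region missing from a list was not listed among its 30000, which does not show that it is absent.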
